A study of Caenorhabditis elegans with 6 samples.

Results

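The nuclear genes for oxidative phosphorylation were described here in Caenorhabditis elegans, a free-living nematode, with and without tryptophan in the food. Genes were members when they lay outside the mitochondrial DNA, had a mean of at least 1 FPKM over the 6 libraries, and carried a WBcel235 symbol beginning with nuo-, nduf-, ndus-, sdha-, sdhb-, sdhc-, sdhd-, ucr-, cox-, asb- or asg-, or were gas-1, lpd-5, isp-1, cyc-1, atp-1, atp-2, atp-3, atp-4 or atp-5. FPKM is the number of sequenced fragments per kilobase of transcript, scaled to the size of the library. Before the level filter 49 genes carried such a symbol, and all 49 passed it, out of 13511 genes tested. The least abundant was cox-17 at a mean of 6.27 FPKM, so no member lay near the filter. mev-1, the nematode gene for the membrane subunit SDHC of complex II, has no symbol of this form and is given only beside complex II. cox-16 fits by symbol but its identifier was not analysed here.

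The members encode the machinery that makes most of the ATP of an aerobic cell. Complexes I and II pass electrons from NADH and succinate to ubiquinone, complex III hands them to cytochrome c, and complex IV (cytochrome c oxidase) reduces oxygen. Complexes I, III and IV pump protons across the inner mitochondrial membrane, and complex V, the ATP synthase, uses the gradient. Most subunits are nuclear genes, made in the cytosol and imported, while a few core subunits are encoded by the mitochondrial DNA, and in this nematode lowered expression of several of these genes in larvae is known to lengthen life. Roles named below without a nematode reference are those of the orthologous subunit in mammals.

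Whole wild-type (WT) hermaphrodites, labelled young adult, were raised in synchrony to the last larval stage (L4) and sampled 36 h later at 20 °C. The control group held 3 libraries without added tryptophan, and the tryptophan group held 3 libraries from animals that had 5 mM tryptophan in the food for those 36 h. The only comparison the design holds is tryptophan against control. No label says whether the replicates were separate cultures, so the p-values measure the spread between these libraries, which may be technical. Each library was estimated from its low values to hold about 14.5 to 24.8 M (mega) counted units, an approximate figure since the deposited files give no counts.

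The 2 libraries numbered 1 stood apart from the other 4. Over all genes, log2 levels in control library 1 and tryptophan library 1 correlated at r = 0.578, while the other 4 libraries correlated at 0.960 to 0.980 with each other. The 6 yolk protein genes (vit-1 to vit-6) summed to 19564 FPKM in the control library numbered 1 and to 406 FPKM in the tryptophan one, against 946 to 3951 FPKM in the other 4. The sperm list of 34 genes, of which 33 reached 1 FPKM, summed to 510.3 and 22166 FPKM in the same order, against 5651 to 8662 FPKM elsewhere. The 10 oocyte and eggshell genes summed to 5788 FPKM and 817 FPKM in the same libraries, against 1107 to 1474 FPKM elsewhere, and the mean log2 level of 6 body wall muscle genes was lowest in tryptophan library 1 at 7.42, against 8.55 to 9.12 in the other 5 libraries. All 9 marker lists, for yolk, intestine, body wall and pharyngeal muscle, epidermis, neurons, germ line, oocytes and sperm, were detected, and 0 of their genes were at 0 in every library. The part of these tissues in the results below was not tested, and in whole animals fewer cells of a type and less RNA per cell cannot be told apart. Results are therefore given for all 6 libraries and for libraries 2 and 3 of each group.

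Members were among the most abundant messages of the animal. Their mean FPKM ranged from 6.27 for cox-17 to 1332 for atp-2, with a median of 224, against a median of 13.7 over all genes tested. Of the 49 members, 40 reached 100 FPKM, 36 were among the 1000 most abundant genes and 22 among the 500 most abundant. The 7 subunits of complex IV had the highest median level at 610.2 FPKM, followed by the 9 of complex V at 549, the 7 of complex III at 232, the 15 of complex I at 190.1 and the 4 of complex II at 104. The 7 cytochrome oxidase assembly factors, which load heme and copper into complex IV or insert its subunits, had a median of 27.9 FPKM. Together the members held 1.70, 1.89 and 1.85% of all FPKM in control libraries 1 to 3 and 2.06, 1.81 and 1.83% in tryptophan libraries 1 to 3. The group means of this share were 1.81 ± 0.0993% and 1.90 ± 0.142% (SD, n = 3 each), so they differed by less than the spread between libraries.

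Members had shorter transcripts than most genes. Their median annotated transcript was 986 bp with 4 exons and 780 bp of coding sequence, against 1304 bp, 6 exons and 1062 bp over the 12783 protein-coding genes tested. A single annotated transcript was listed for 36 members (73.5%, against 62.8% of protein-coding genes tested). Another protein-coding gene on the same strand lay within 500 bp of 30 members (61.2%, against 39.1%), an arrangement that in this nematode is often an operon, although operon calls were not used here. Chromosome I held 16 members (32.7%, against 17.1% of the genes tested) and chromosome III held 13 (26.5%, against 16.1%). Chromosomes II, IV, V and X held 6, 5, 3 and 6 members. These counts describe where the genes lie and were not tested.

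No member passed the test for a difference between tryptophan and control. In limma over all 6 libraries, 0 of 13511 genes passed an adjusted p of 0.05 (0% called), and 158 genes (1.17%) had an unadjusted p under 0.05, of which 0 were members. The smallest adjusted p among members was 0.802. Of the 49 members 34 had a log2 fold change below 0 (69.4%), against 52.3% of all genes tested, with a median of -0.11 against -0.03 over all genes. The members' median was 0.01 after quantile normalization (against -0.05 over all genes) and 0.00 as TPM (against 0.08). The fold changes ran from -0.87 for sdha-1 to 0.45 for ucr-11. On the deposited scale every tryptophan library was below every control library for 3 members, sdhd-1, cox-15 and atp-3 (6.12% of the members, against 4.32% of all genes). Every one was above for 1 member, nuo-4 (2.04%, against 3.98%). The summed FPKM of a library ran from 608336 in tryptophan library 3 to 1.12e+06 in tryptophan library 1. Divided by these sums (TPM), each of these genes had overlapping groups. Below, a gene's place above or below the controls is on the deposited scale unless TPM is named.

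The tryptophan libraries did not move together. Tryptophan library 1 was above all 3 controls for 25 members (51.0%, against 38.7% of all genes) and below all 3 for 13 (26.5%, against 37.3%). Tryptophan library 2 was below all 3 controls for 31 members (63.3%, against 19.5%), library 3 for 39 (79.6%, against 27.4%), and both of them for 28 (57.1%, against 14.5%). The mean log2(FPKM + 1) of the members was 7.80, 7.44 and 7.61 in control libraries 1 to 3 and 7.93, 7.35 and 7.12 in tryptophan libraries 1 to 3. The group means were 7.61 ± 0.18 and 7.47 ± 0.42 (SD, n = 3 each), a difference of -0.15 that is smaller than the spread within the tryptophan group. The map of members by library shows the highest and the lowest values side by side within the tryptophan group.

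**Figure D1:**
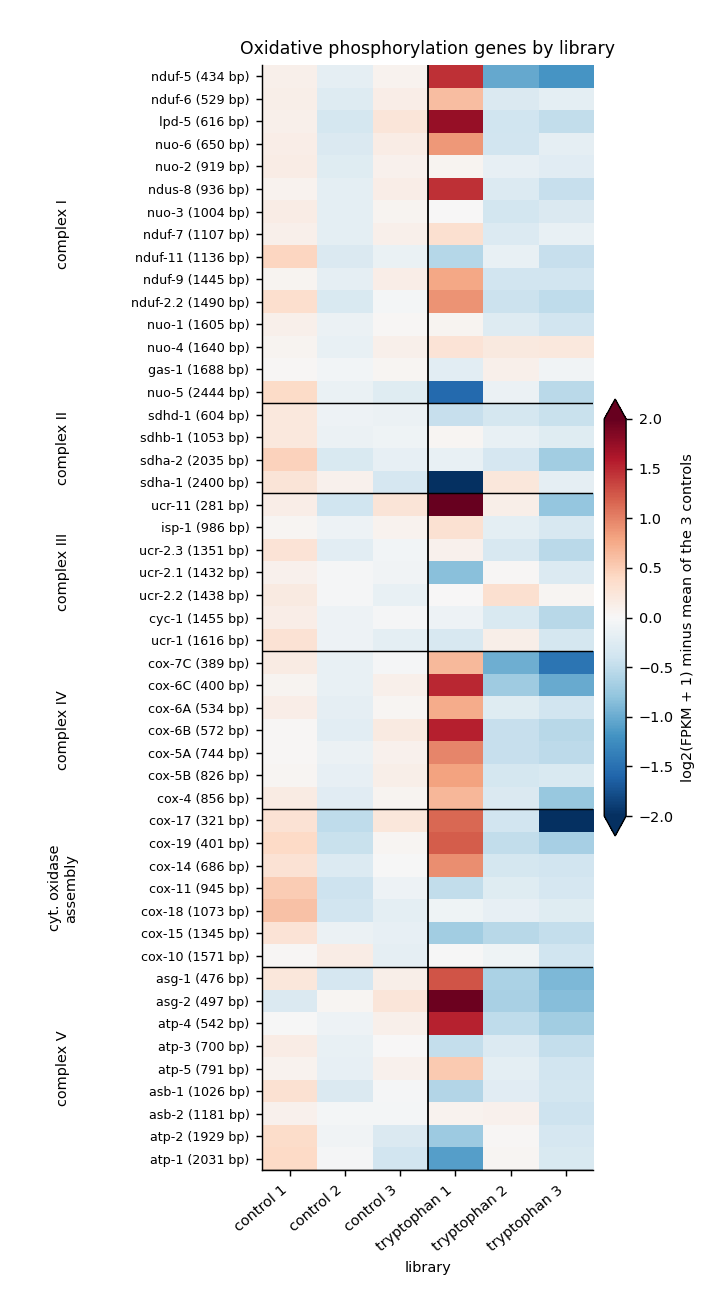
Each row is a member with its annotated transcript length in bp, grouped by complex and sorted by length, and each column a library; color gives log2(FPKM + 1) minus the mean of the 3 controls, with values beyond ±2 drawn in the end color. In tryptophan library 1 short members were high and long members low, while in tryptophan libraries 2 and 3 most members were below the controls on this scale. In both libraries 28 of 49 were (against 14.5% of all genes), and 5 of 49 as TPM (against 5.58%).

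With libraries 2 and 3 of each group only, 41 of 49 members had a log2 fold change below 0 (83.7%, against 52.6% of all genes), with a median of -0.26 against -0.02. In that comparison 68 genes passed the adjusted threshold (0.503% of the genes tested), 34 in each direction, and 0 members did. An unadjusted p under 0.05 was reached by 6 members in the lower direction (12.2%, against 8.30% of all genes) and by 0 in the higher direction (against 5.68%). Both tryptophan libraries were below both control libraries for 28 members (57.1%, against 25.0%) and above for 2, nuo-4 and ucr-2.2 (4.08%, against 21.4%). The 6 lower members were nduf-5, cox-7C, cox-6C, atp-4, asg-1 and asg-2, all of them with transcripts under 800 bp. Leaving out tryptophan library 1 alone gave a median of -0.33 with 45 members below 0, and leaving out tryptophan library 3 alone gave 0.05 with 23 below 0, so the direction of the members' median depends on single libraries.

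The distance of tryptophan libraries 2 and 3 below the controls depended on how the libraries were scaled to each other. Tryptophan library 1 was above all controls for 22 members as TPM (44.9%, against 27.9% of all genes). Rescaled to TPM, which gives each library the same sum, 5 of 49 members were below all controls in both libraries (10.2%, against 5.58% of all genes), after quantile normalization 11 (22.4%, against 15.8%), and after median rescaling 28 (57.1%, against 16.8%). For libraries 2 and 3 of each group the members' median log2 fold change was -0.27 with median rescaling, -0.06 with quantile normalization and -0.02 as TPM, alternatives added after the values were seen. TPM also moved the median of all genes, to 0.19 from -0.02. Relative to all genes, the members' median was -0.24 as deposited, -0.24 with median rescaling, -0.21 as TPM and -0.06 with quantile normalization. With median rescaling 2 of 49 members passed the adjusted threshold in libraries 2 and 3, nduf-5 (limma adjusted p = 0.0430) and cox-7C (limma adjusted p = 0.044). Over all genes, 149 of 13511 tested passed it there, and 0 members did under the other scalings. nduf-5, cox-7C, cox-6C, atp-4, asg-1 and asg-2 had negative log2 fold changes in libraries 2 and 3 under each of these scalings. They ran from -0.36 for atp-4 as TPM to -1.14 for cox-7C with median rescaling. These genes were picked by their p in the same libraries, so keeping their sign is no separate evidence. With the trend with transcript length subtracted, as described below, they ran from -0.31 for atp-4 (limma adjusted p 0.675) to -0.78 for cox-7C (limma adjusted p 0.171).

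**Figure D2:**
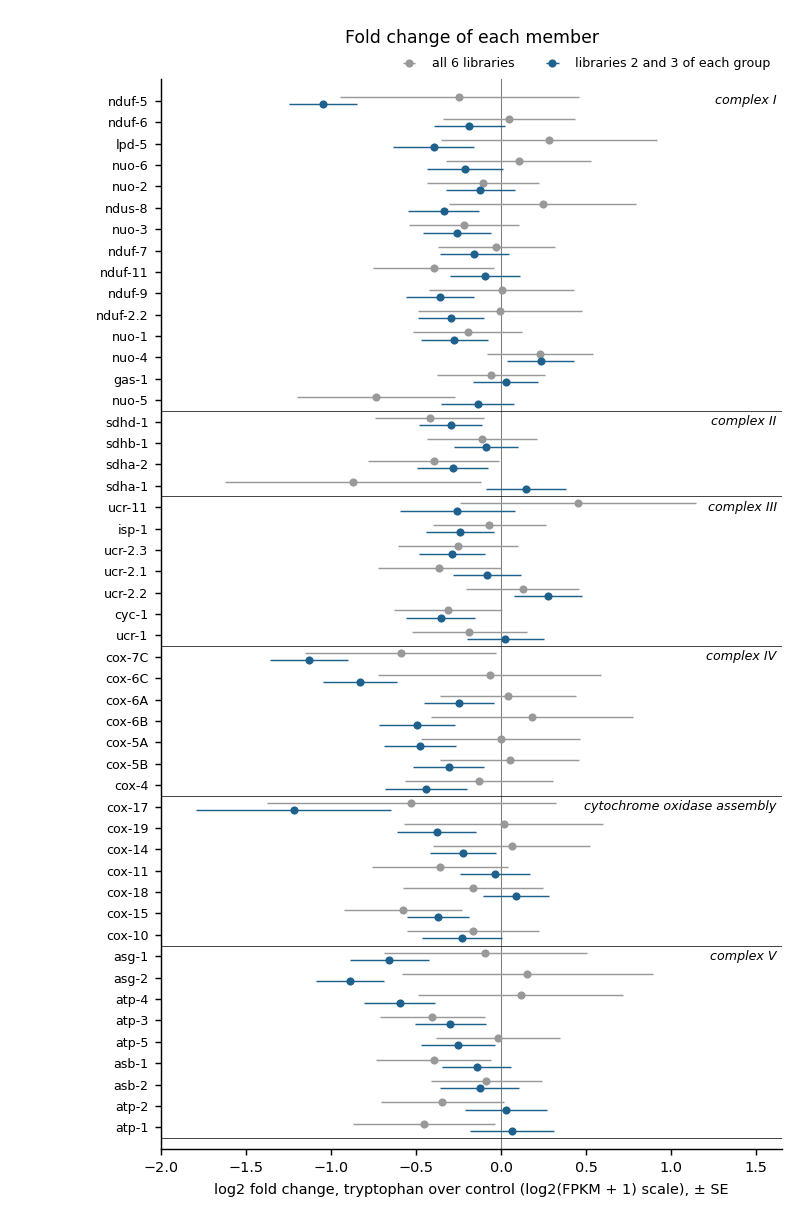
Log2 fold change of tryptophan over control (x axis, on the log2(FPKM + 1) scale) for each member, sorted by transcript length within each complex; gray points use all 6 libraries and blue points libraries 2 and 3 of each group, and bars are ± 1 SE from limma. The gray bars are wide for short members, and 41 of 49 blue points lie below 0 (83.7%, against 52.6% of all genes). Rescaled to TPM, 29 of 49 did, with a median of -0.02 for the members and 0.19 for all genes.

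Complex I, which oxidizes NADH, had 15 members, of which 9 had a log2 fold change below 0 over 6 libraries (median -0.03) and 13 in libraries 2 and 3 (median -0.21). Both medians turned positive as TPM (0.08 and 0.02), and after quantile normalization they were 0.07 and -0.03. The medians of all genes were 0.08 and 0.19 as TPM, and -0.05 and 0.00 after quantile normalization. List medians given below under these scalings are to be read beside those of all genes. nuo-1, the flavoprotein subunit that binds NADH and the most abundant of the 15, stood at 342, 293 and 322 FPKM in control libraries 1 to 3 and 332, 265 and 243 FPKM in tryptophan libraries 1 to 3. Below, values on either side of the word against are control and tryptophan libraries 1 to 3, in that order. nuo-6, an accessory subunit, stood at 280.2, 209 and 281 FPKM against 465, 195 and 223 FPKM. nuo-3, another accessory subunit, stood at 319, 251 and 297 FPKM against 289, 222 and 234.9 FPKM. For all 3 of these genes, tryptophan libraries 2 and 3 were at or below the middle control value, and none passed the test (log2 fold changes -0.20, 0.10 and -0.22; limma adjusted p 0.853, 0.952 and 0.839).

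nuo-4 was the one complex I gene, and the one member, with all tryptophan values above all controls on the deposited scale. It encodes an accessory subunit (NDUFA10 in mammals; K04G7.4, WBcel235 chromosome III, 7156026 to 7158809, minus strand) and stood at 199, 171 and 204 FPKM in control libraries 1 to 3 and 231, 218 and 221 FPKM in tryptophan libraries 1 to 3. The ranges do not overlap on that scale, but the highest control and the lowest tryptophan value are close, and as TPM the ranges overlap. Its means were 191 ± 17.5 FPKM in control and 223 ± 7.18 FPKM in tryptophan (SD, n = 3 each), and the log2 fold change was 0.23 (SE 0.31; adjusted p in limma, 0.831).

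In tryptophan library 1, nduf-5, lpd-5 and ndus-8 of complex I lay above their controls and nuo-5, with the longest transcript, below them. nduf-5, an accessory subunit with a transcript of 434 bp (Y54E10BL.5, WBcel235 chromosome I, 3001406 to 3002847, minus strand), stood at 167, 138 and 165 FPKM in control libraries 1 to 3 and 432, 76.6 and 68.2 FPKM in tryptophan libraries 1 to 3. Its highest value and its lowest values are thus all in the tryptophan group. In libraries 2 and 3 it had the smallest adjusted p of all members, with a log2 fold change of -1.05 (SE 0.20; adjusted p in limma, 0.0937), against -0.25 (SE 0.71; adjusted p in limma, 0.925) with all 6. lpd-5, the NDUFS4 subunit (616 bp), stood at 184, 134 and 202 FPKM against 577, 129 and 121 FPKM. ndus-8, an iron-sulfur subunit, stood at 208, 174 and 219 FPKM against 554, 164 and 145 FPKM. Both were highest in tryptophan library 1, while in tryptophan libraries 2 and 3 they were below all 3 controls on the deposited scale. As TPM, tryptophan library 3 was inside the control range for both genes. nuo-5, the largest iron-sulfur subunit (2444 bp), stood at 182, 127 and 117 FPKM in control libraries 1 to 3 and 46.8, 128 and 95.6 FPKM in tryptophan libraries 1 to 3, with its lowest value in tryptophan library 1 and a log2 fold change of -0.74 (SE 0.47; adjusted p in limma, 0.802). nduf-11 had the second smallest p in complex I and a range of 171 to 229.9 FPKM in tryptophan, overlapping its controls at 341, 208 and 232 FPKM. The other accessory and core subunits nuo-2, nduf-6, nduf-7 and nduf-9 had log2 fold changes of -0.11, 0.04, -0.03 and 0.00.

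Complex II, succinate dehydrogenase, is also an enzyme of the tricarboxylic acid cycle and had 4 members, all with a log2 fold change below 0 over 6 libraries. Their median was -0.41 over 6 libraries (-0.30 as TPM) and -0.19 in libraries 2 and 3 (0.05 as TPM), where 3 of 4 were below 0. sdhd-1, a membrane anchor subunit (F33A8.5, WBcel235 chromosome II, 11049144 to 11049913, minus strand), stood at 179.7, 145 and 144 FPKM in control libraries 1 to 3 and 113, 121 and 113 FPKM in tryptophan libraries 1 to 3. On the deposited scale the groups do not overlap, with means of 156 ± 20.4 FPKM in control and 116 ± 4.68 FPKM in tryptophan (SD, n = 3 each). The log2 fold change was -0.42 (SE 0.32; adjusted p in limma, 0.802), and as TPM the groups overlap. sdhb-1, the iron-sulfur subunit, stood at 230.0, 183 and 186 FPKM against 205, 179.7 and 167 FPKM, with overlapping groups. mev-1, the other membrane subunit and no member by its symbol, stood at 193, 186 and 185 FPKM against 280.3, 139.9 and 136 FPKM. On the deposited scale mev-1 was above all controls in tryptophan library 1 and below them in libraries 2 and 3. On that scale sdhd-1 was below all controls in each tryptophan library. As TPM this contrast was not seen, since every tryptophan value of mev-1 lay inside its control range.

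The flavoprotein subunit of complex II, which binds and oxidizes succinate, is encoded by a pair of genes. sdha-1 (transcript 2400 bp; C03G5.1, WBcel235 chromosome X, 8542757 to 8546021, minus strand) stood at 70.6, 62.7 and 46.5 FPKM in control libraries 1 to 3 and 8.51, 69.1 and 51.8 FPKM in tryptophan libraries 1 to 3, and its log2 fold change of -0.87 (SE 0.75) rests on tryptophan library 1. In libraries 2 and 3 it was 0.15 (SE 0.24; adjusted p in limma, 0.819). sdha-2 (transcript 2035 bp) stood at 112, 65.2 and 71.8 FPKM against 72.4, 63.4 and 49.3 FPKM, with a value in tryptophan library 1 inside the control range. sdha-1 thus gave 38.7, 49.01 and 39.3% of the summed sdha FPKM in controls and 10.5, 52.1 and 51.2% with tryptophan.

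Complex III, which passes electrons from ubiquinol to cytochrome c, had 7 members, 5 of them with a log2 fold change below 0 (median -0.19, or -0.08 as TPM, and -0.24 in libraries 2 and 3, or -0.01 as TPM and 0.02 after quantile normalization). isp-1, the Rieske iron-sulfur protein whose point mutant is long-lived in this nematode, stood at 437, 399 and 447 FPKM in control libraries 1 to 3 and 530.0, 371 and 343 FPKM in tryptophan libraries 1 to 3. cyc-1, cytochrome c1, stood at 399.9, 338 and 356 FPKM against 341, 296 and 248 FPKM. ucr-1, a core protein, stood at 427, 323 and 304 FPKM against 279, 375 and 271 FPKM. Control and tryptophan values overlapped for all 3 (limma adjusted p 0.958, 0.802 and 0.87). ucr-11, a small subunit with the shortest transcript of all members (281 bp), stood at 175, 121 and 191 FPKM against 641, 173 and 93 FPKM and had the highest log2 fold change, 0.45 (SE 0.69; adjusted p in limma, 0.845). Only tryptophan library 1 was above its controls, and in libraries 2 and 3 the log2 fold change was -0.26.

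The other core protein of complex III is encoded by 3 genes with transcripts of 1432, 1438 and 1351 bp. ucr-2.1 stood at 156, 145 and 139.7 FPKM against 81.8, 148 and 121 FPKM. ucr-2.3 stood at 176, 125 and 140.5 FPKM against 155, 117 and 100.4 FPKM. ucr-2.2 (T10B10.2, WBcel235 chromosome X, 15173904 to 15178145, plus strand) stood at 87.8, 75.9 and 69.7 FPKM in control libraries 1 to 3 and 77.8, 97.4 and 79.8 FPKM in tryptophan libraries 1 to 3. All 3 had overlapping groups over 6 libraries, and ucr-2.2 was the one with a positive log2 fold change, 0.13 (SE 0.33; adjusted p in limma, 0.917). As a share of the summed FPKM of the 3 genes, ucr-2.2 gave 20.9, 21.9 and 19.9% in controls and 24.8, 26.8 and 26.5% with tryptophan. Such a share is taken within a library, so TPM or median rescaling leaves it as it is. The shares of ucr-2.2 do not overlap, and their means were 20.9 ± 1.00% and 26.0 ± 1.105% (SD, n = 3 each). The two-sided exact permutation p was 0.1, the smallest that 3 against 3 can give, and 0.7 after Benjamini-Hochberg adjustment over the 7 shares compared. The test of shares was added after the values had been seen. For the other 6 shares the exact permutation p was 0.3 to 1.

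**Figure D3:**
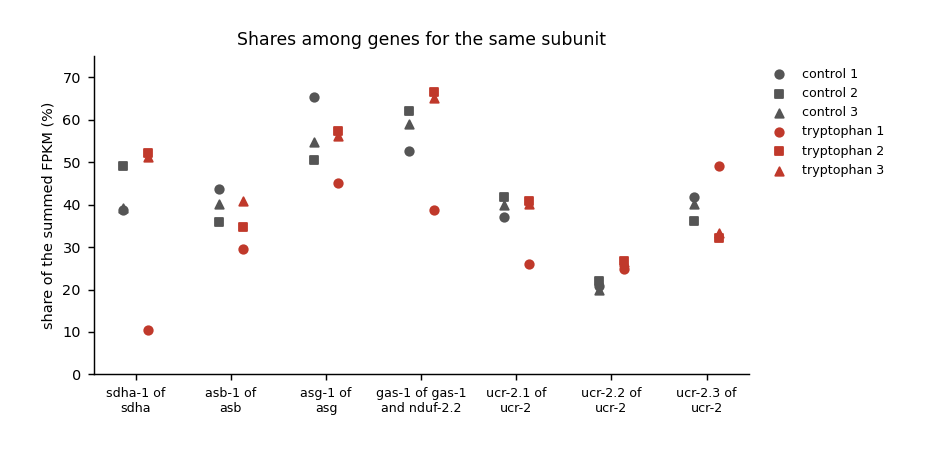
Share of the summed FPKM (%, y axis from 0) held by one gene among the genes for the same subunit, for each library; gray marks are controls and red marks tryptophan, and the marker shape gives the library number. The ucr-2.2 share is 19.9 to 21.9% in controls and 24.8 to 26.8% with tryptophan, and tryptophan library 1 is the lowest point for sdha-1, asb-1, asg-1, gas-1 and ucr-2.1.

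Among the other subunits made from paired genes, the shares overlapped between groups. gas-1, the complex I subunit whose mutant is hypersensitive to volatile anesthetics in this nematode, gave 52.6, 62.0 and 59.1% of the sum with its paralog nduf-2.2 in controls and 38.7, 66.5 and 65.0% with tryptophan. asb-1, for subunit b of the ATP synthase, gave 43.8, 36.0 and 40.1% against 29.5, 34.8 and 40.8% of the sum with asb-2. asg-1, for subunit g, gave 65.4, 50.6 and 54.9% against 45.0, 57.3 and 56.2% of the sum with asg-2. How reads were divided among such paralogs is uncertain, since the sources used here do not say how shared reads were assigned.

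Complex IV, which reduces oxygen, showed the widest spread between tryptophan libraries. All 7 nuclear subunits were above every control in tryptophan library 1 and below every control in tryptophan libraries 2 and 3, as were 38.7% and 14.5% of all genes. Rescaled to TPM, 7 of 7 were above every control in tryptophan library 1 (against 27.9% of all genes) and 2 of 7 below every control in libraries 2 and 3 (against 5.58%). cox-5A (transcript 744 bp), the most abundant, stood at 921, 836 and 956 FPKM in control libraries 1 to 3 and 1773, 654 and 630.2 FPKM in tryptophan libraries 1 to 3. cox-6B (572 bp) stood at 709.6, 599.6 and 788 FPKM against 2051, 504 and 471 FPKM. cox-4 (856 bp) stood at 724, 553 and 669 FPKM against 1016, 526 and 379 FPKM. The median log2 fold change of the 7 was -0.00 over 6 libraries (0.11 as TPM and 0.14 after quantile normalization), with the means of their log2 levels at 9.21 ± 0.15 in control and 9.13 ± 0.92 in tryptophan (SD, n = 3 each). With libraries 2 and 3 the complex IV median was -0.48, with 7 of 7 below 0, and -0.24 as TPM. The median transcript of the 7 was 572 bp. Protein-coding genes of 500 to under 800 bp had median log2 distances from the controls of 1.02, -0.23 and -0.11 in tryptophan libraries 1 to 3. With each library's trend with transcript length subtracted, as described below, the complex IV median was -0.25 over 6 libraries. In libraries 2 and 3 it was then -0.28, with 6 of 7 below 0.

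cox-7C and cox-6C, small membrane subunits of complex IV, were the lowest of the complex in libraries 2 and 3. cox-7C (transcript 389 bp; F26E4.6, WBcel235 chromosome I, 9773172 to 9774012, plus strand) stood at 461, 370.1 and 403 FPKM in control libraries 1 to 3 and 644, 209 and 148 FPKM in tryptophan libraries 1 to 3. Its log2 fold change was -1.13 (SE 0.23; adjusted p in limma, 0.11) in libraries 2 and 3 and -0.59 (SE 0.56; adjusted p in limma, 0.802) over 6. cox-6C (400 bp; F29C4.2, WBcel235 chromosome IV, 126731 to 127640, plus strand) stood at 545, 473 and 565 FPKM against 1496, 322 and 261 FPKM, with a log2 fold change of -0.83 (SE 0.22; adjusted p in limma, 0.193) in libraries 2 and 3. Neither passed the threshold on the deposited scale. The remaining subunits cox-5B and cox-6A had log2 fold changes of -0.31 and -0.25 in libraries 2 and 3.

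The 7 assembly factors of complex IV had a median log2 fold change of -0.17 over 6 libraries and -0.23 in libraries 2 and 3 (-0.07 and -0.02 as TPM). cox-15, an enzyme of heme A synthesis (T06D8.5, WBcel235 chromosome II, 11232756 to 11234952, minus strand), stood at 74.8, 56.8 and 54.6 FPKM in control libraries 1 to 3 and 37.4, 41.5 and 44.1 FPKM in tryptophan libraries 1 to 3. Its groups do not overlap on the deposited scale, with a log2 fold change of -0.58 (SE 0.35; adjusted p in limma, 0.802), but they overlap as TPM. cox-14, the most abundant, stood at 123, 83.3 and 100.2 FPKM against 192, 78.6 and 77.3 FPKM. cox-19 stood at 39.3, 21.3 and 30.3 FPKM against 69.3, 20.6 and 18.1 FPKM. cox-11, which helps insert copper, stood at 44.2, 23 and 28.7 FPKM against 21.6, 25.8 and 24.3 FPKM. Of these 3, cox-14 and cox-19 were highest in tryptophan library 1 and cox-11 in control library 1. cox-10, which makes heme O, and cox-18, which inserts a subunit into the membrane, had log2 fold changes of -0.17 and -0.17. cox-17, a copper chaperone, stood at 7.5, 3.88 and 7.12 FPKM against 14.4, 4.32 and 0.37 FPKM. Its value in tryptophan library 3 is the lowest of any member in any library.

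Complex V, the ATP synthase, had 9 members, 7 of them with a log2 fold change below 0 over 6 libraries and 7 in libraries 2 and 3 (medians -0.09 and -0.25, or 0.02 and -0.02 as TPM and -0.01 and 0.08 after quantile normalization). atp-2 (transcript 1929 bp; C34E10.6, WBcel235 chromosome III, 5228417 to 5230536, plus strand) encodes the catalytic beta subunit and stood at 1878, 1387 and 1198 FPKM in control libraries 1 to 3 and 881, 1489 and 1157 FPKM in tryptophan libraries 1 to 3. atp-1 (2031 bp; H28O16.1, WBcel235 chromosome I, 12652277 to 12654655, plus strand), the alpha subunit, stood at 1598, 1202 and 935 FPKM against 566, 1249 and 984 FPKM. Both were lowest in tryptophan library 1, and tryptophan libraries 2 and 3 were between 984 and 1489 FPKM for the pair. Their log2 fold changes were -0.35 and -0.46 over 6 libraries and 0.03 and 0.06 in libraries 2 and 3 (limma adjusted p 0.802, 0.802, 0.974 and 0.932). atp-5, subunit d, was the third in level and stood at 723, 615 and 731 FPKM against 990.0, 601 and 525 FPKM.

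atp-3 was the one complex V gene with every tryptophan value below every control on the deposited scale, while as TPM its groups overlap. It encodes the stalk subunit OSCP (F27C1.7, WBcel235 chromosome I, 5428533 to 5429908, minus strand) and stood at 690.3, 560.5 and 628 FPKM in control libraries 1 to 3 and 451, 518 and 448 FPKM in tryptophan libraries 1 to 3. The means were 626 ± 64.9 FPKM in control and 472 ± 39.6 FPKM in tryptophan (SD, n = 3 each), and the log2 fold change was -0.40 (SE 0.31; adjusted p in limma, 0.802). The shortest transcripts of complex V were spread most. asg-2 (497 bp; C53B7.4, WBcel235 chromosome X, 6841258 to 6842121, plus strand) stood at 239, 299 and 344 FPKM in control libraries 1 to 3 and 1131, 185 and 161 FPKM in tryptophan libraries 1 to 3. asg-1 (476 bp) stood at 451, 306 and 418 FPKM against 925, 248 and 206 FPKM. atp-4, coupling factor 6 (542 bp), stood at 527, 492 and 569.7 FPKM against 1533, 374 and 327 FPKM. On the deposited scale each was highest in tryptophan library 1 and lowest in tryptophan library 3. As TPM the lowest value of asg-2 and of atp-4 was in control library 1. In libraries 2 and 3 the log2 fold change was -0.89 (SE 0.20; adjusted p in limma, 0.143) for asg-2, -0.66 (SE 0.23; adjusted p in limma, 0.29) for asg-1 and -0.60 (SE 0.21; adjusted p in limma, 0.288) for atp-4. asb-1 stood at 304, 201 and 241 FPKM against 162, 209 and 189 FPKM. asb-2 stood at 390.2, 358 and 359 FPKM against 388, 391 and 275 FPKM, and both had overlapping groups.

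Within most libraries, the members' distance from the controls was related to their transcript length. In tryptophan library 1, Spearman's rho between log2(FPKM + 1) minus the control mean and transcript length was -0.73 over the 49 members and -0.62 over the 12783 protein-coding genes tested. In tryptophan library 2 it was 0.61 and 0.31, and in tryptophan library 3 0.48 and 0.06. Against the other 2 controls, it was 0.22 and 0.27 in control library 1, 0.41 and -0.07 in control library 2, and -0.68 and -0.39 in control library 3. These are relations across genes that share a library, described without a test. Over the members the sign was negative in tryptophan library 1 and control library 3 and positive in the other 4 libraries. Over all protein-coding genes rho was near 0 in tryptophan library 3 and in control library 2, and in control library 2 its sign was opposite to that over the members.

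The 8 members with transcripts under 500 bp had a median of 1.36 above the controls on the log2 scale in tryptophan library 1, against 1.49 for the 1048 protein-coding genes of that length. The 5 members of 1800 bp or more had a median of -1.101, against -1.04 for 3771 genes. Between these, the 13 members of 800 to under 1200 bp had 0.06 in that library, against 0.48 for genes of that length, a wider gap than in the shortest or the longest range. In tryptophan libraries 2 and 3 the shortest members had medians of -0.64 and -0.95, against -0.20 and -0.20 for protein-coding genes of that length. Members of 800 to under 1200 bp had -0.23 and -0.32, against -0.12 and -0.03. The longest members had 0.03 and -0.34, against 0.18 and -0.00. On the deposited scale the members' median was the lower in 5 of 5 length ranges in tryptophan libraries 2 and 3, but also in 5 of 5 in control library 3 and in 4 of 5 in control library 2 and in tryptophan library 1. In control library 1 it was the lower in 1 of 5. Under 500 bp, control library 2 had -0.39 for the members against 0.08 for genes of that length, relative to the other 2 controls, a gap about as wide as in tryptophan library 2. Control library 1, which is part of the reference for the tryptophan values, had 0.23 against -0.35 in that range.

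**Figure D4:**
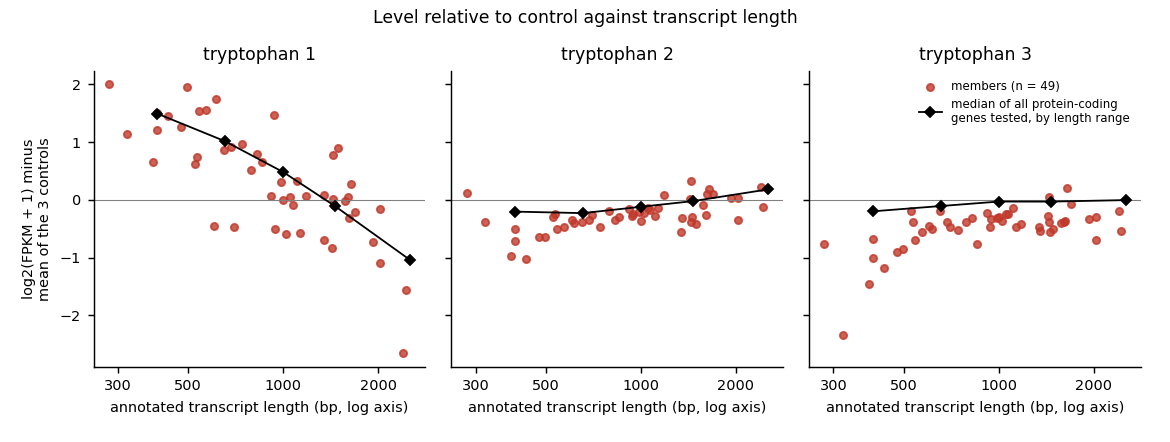
Log2(FPKM + 1) minus the mean of the 3 controls (y axis) against annotated transcript length (x axis, bp, log scale) for the 49 members (red) in each tryptophan library, with the median of all protein-coding genes tested in 5 length ranges (black, drawn at the median length of the range). Members fall with length in library 1, as the black line does, and lie mostly below the line in libraries 2 and 3, on the deposited scale.

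At a split of 800 bp, chosen after the values were seen, the 19 shorter members had a median log2 fold change of 0.01 over 6 libraries and -0.40 in libraries 2 and 3, where 19 of 19 were below 0. The 30 longer members had -0.18 and -0.14, with 25 and 22 below 0. Over the 12783 protein-coding genes tested, Spearman's rho between log2 fold change and transcript length was -0.33 over 6 libraries. In libraries 2 and 3 it was 0.59, and over the members it was -0.35 and 0.65. Shorter genes as a whole were thus the lower ones in libraries 2 and 3. Subtracting from each library its trend with transcript length, an alternative also added after the values were seen, gave a median over all members of -0.22 over 6 libraries. There 41 of 49 were below 0, against a median of -0.04 and 7018 of 13388 below 0 over all genes. In libraries 2 and 3 it gave -0.09, with 39 of 49 below 0, against -0.01 and 6850 of 13388 over all genes. In that comparison 132 of 13388 genes passed the adjusted threshold and 0 members did. The part of transcript length in the members' fold changes beyond this was not tested.

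Genes that work beside the members were read from lists of related functions, and 0 of their genes passed the adjusted threshold in either comparison. The 12 protein-coding genes of the mitochondrial DNA, which encode the core subunits that the members assemble around, had a median log2 fold change of 0.12 over 6 libraries and -0.18 in libraries 2 and 3 (0.23 and 0.06 as TPM). Of them 9 were above all controls in tryptophan library 1, against 38.7% of all genes. ND6, a complex I subunit, stood at 86, 42.6 and 69.8 FPKM against 209.7, 66 and 56 FPKM. ND5, another, stood at 499.6, 310.3 and 478 FPKM against 261, 467 and 239 FPKM. The 69 genes of the mitochondrial ribosome, which translates them, had medians of -0.03 and -0.28, with 36 and 61 below 0 (medians 0.08 and -0.05 as TPM), and 51 were above all controls in tryptophan library 1, against the same 38.7%. In the same way the 12 genes of mitochondrial protein import had medians of -0.09 and -0.32 (0.01 and -0.09 as TPM). With the length trend removed, the medians of the mitochondrial DNA, ribosome and import lists were -0.12, -0.18 and -0.42 over 6 libraries. In libraries 2 and 3 they were then -0.03, -0.12 and -0.09, with 6, 48 and 7 genes below 0. For these 3 lists, as for the members, tryptophan library 1 had the highest list mean of the 6 libraries and tryptophan library 3 the lowest. mrpl-45, of the ribosome list, had the smallest p there and stood at 75.2, 46.5 and 54.4 FPKM against 26.1, 37.8 and 23.9 FPKM, with groups that do not overlap.

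The 18 genes of the tricarboxylic acid cycle and pyruvate dehydrogenase, which supply NADH and succinate, had a median log2 fold change of -0.37 over 6 libraries with 16 below 0 (-0.26 as TPM), and 13 were below all controls in tryptophan library 1, against 37.3% of all genes. In libraries 2 and 3 the median was -0.05 with 11 below 0 (0.18 as TPM, against 0.19 over all genes). sucl-2, a succinyl-CoA ligase subunit, stood at 258, 134 and 153 FPKM against 69.7, 118 and 95.5 FPKM, with groups that do not overlap. mdh-2, the mitochondrial malate dehydrogenase, stood at 488, 407 and 341 FPKM against 224, 348 and 271 FPKM, with groups that do. The 7 coq- genes of ubiquinone synthesis had medians of -0.22 over 6 libraries, with 7 of 7 below 0, and -0.28 in libraries 2 and 3 (-0.11 and -0.06 as TPM). Among 8 other assembly factors and ATP synthase regulators, with medians of -0.13 and -0.39 (-0.03 and -0.17 as TPM), sft-1, named for the human oxidase assembly factor SURF1, stood at 16.8, 12.1 and 14.6 FPKM against 13.1, 9.25 and 6.93 FPKM. The 7 genes of the mitochondrial stress response had medians of -0.29 and 0.20, over 6 libraries and in libraries 2 and 3 (-0.19 and 0.43 as TPM), and 0.03 in libraries 2 and 3 with the length trend removed. hsp-60, a matrix chaperone, stood at 204, 222 and 159 FPKM against 107, 152 and 135 FPKM. Its groups do not overlap on the deposited scale but do as TPM. atfs-1, the transcription factor of this response in the nematode, stood at 82.4, 43 and 35.3 FPKM against 18.1, 47.6 and 42.3 FPKM, with groups that overlap.

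Cytochrome c and the ADP/ATP carriers connect the complexes to each other and to the cytosol. Over 6 libraries 3 of their genes held the highest fold changes among the related genes, while the 2 most abundant were below 0. Of 6 listed genes 5 were tested, with a median of 1.42 over 6 libraries (1.53 as TPM) and -0.20 in libraries 2 and 3, where it was 0.03 as TPM and 0.00 with the length trend removed. All 5 were above every control in tryptophan library 1, against 38.7% of all genes. The most abundant, ant-1.1 (mean 3272 FPKM), had log2 fold changes of -0.18 over 6 libraries and -0.28 in libraries 2 and 3. cyc-2.1 (mean 880 FPKM) had -0.38 and -0.74. cyc-2.2, a cytochrome c gene, stood at 1.67, 46.1 and 41.4 FPKM in control libraries 1 to 3 and 291, 34.3 and 41.7 FPKM in tryptophan libraries 1 to 3. ant-1.3, a carrier gene, stood at 4.52, 59.1 and 77.1 FPKM against 123, 63.9 and 61.5 FPKM. Both were lowest in control library 1 and highest in tryptophan library 1, as was the summed level of the sperm list, whose part here was not tested. The log2 fold change was 2.12 (SE 1.28; adjusted p in limma, 0.802) for cyc-2.2 and 1.43 (SE 0.98; adjusted p in limma, 0.802) for ant-1.3, and with libraries 2 and 3 it was -0.20 and -0.10. Without control library 1 the median of the list was -0.02, and it was 1.11 without tryptophan library 1.

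**Figure D5:**
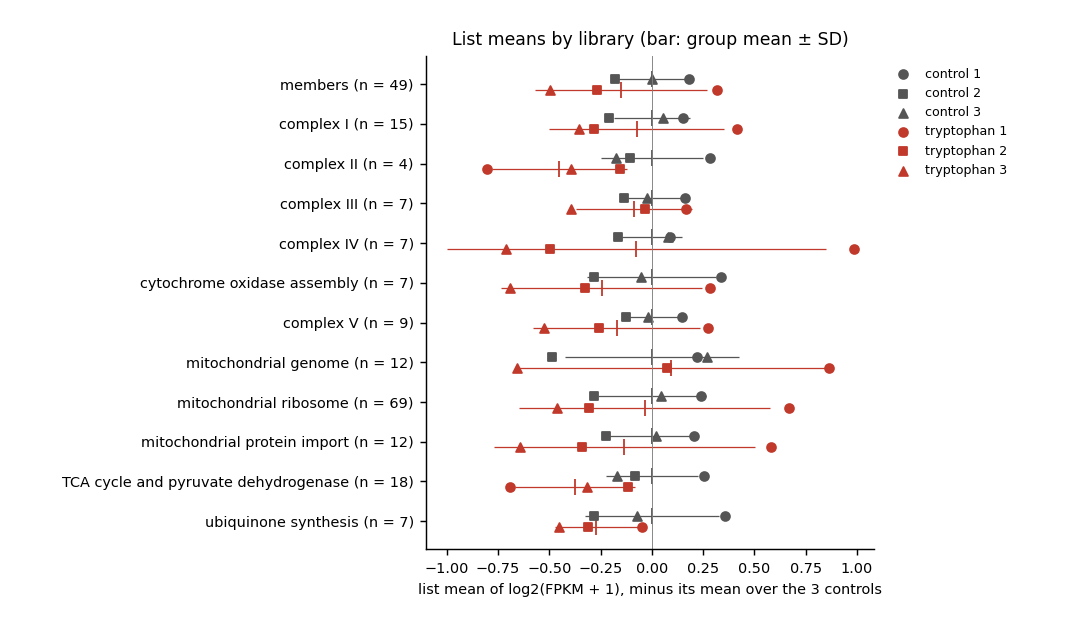
Mean log2(FPKM + 1) of each list, minus its mean over the 3 controls (x axis), for the members, each complex and 5 related lists (n, genes); marks are libraries (gray, control; red, tryptophan; shape, library number), vertical ticks group means and bars ± 1 SD (n = 3). Tryptophan library 1 is the highest tryptophan mark for the members and for complex IV and the lowest for complex II and for the tricarboxylic acid cycle, and group bars overlap in every list.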

How the data were processed

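RNA-seq of whole animals was analysed in 6 libraries, 3 per group, made from total RNA with a TruSeq kit per the labels' protocols. The authors deposited FPKM values, with a table for each library, per the file headers. The submitters' processing notes name Bowtie 0.12.2, StringTie and WBcel235. Strandedness, the annotation release and the treatment of shared reads were not given in the sources used here, so reads of overlapping or antisense genes may be mixed. Of 46589 identifiers 46180 matched Ensembl release 115 (WBcel235, 1-based coordinates), which gave symbols, transcript lengths and neighbours.

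Values were tested as log2(FPKM + 1), which understates changes of low genes, for 13511 genes with a mean of at least 1 FPKM, in limma 3.58.1 (R 4.3.3; group term, eBayes with trend, two-sided, Benjamini-Hochberg over all genes, threshold 0.05). The smallest p an exact permutation of 3 against 3 libraries allows is 0.1. FPKM are not counts, so no count model was used; low values fell within 0.2 of whole multiples of 1 step per library for only 69.6 to 72.7%, and no counts were rebuilt. Scripts (Python 3.11.15, pandas 2.3.3) were tested on simulated data.

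The members, the lists and the emphasis on libraries 2 and 3 were chosen with earlier results of these data known. Named members were, per complex, the 3 most abundant and the 2 with the smallest p, those whose groups do not overlap, and genes for the same subunit; per related list, up to 2 with the smallest p. Other members given with values (among them nduf-5, lpd-5, ndus-8, ucr-11, cox-6C, cox-17 and atp-4), and ant-1.1 and cyc-2.1 of the related lists, were chosen after their values were seen. The settings varied were the pseudocount (0.1, 0.5), the filter (none, 5 FPKM), median, quantile and TPM rescaling, a replicate block, eBayes variants, each library left out, and libraries 2 and 3 only; removal of the length trend, and each rescaling with libraries 2 and 3 only, were added after seeing the data.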

Additional observations from a re-analysis of the deposited data

How the results depend on the processing

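Of the 23 settings run, the main one included, 22 had 0 members past the adjusted threshold. Median rescaling with libraries 2 and 3 of each group had 2 of 49, beside 149 of the 13511 genes tested. The number of genes past it was 0 in the main comparison and in every alternative with replicate 1 of at least 1 group. With libraries 2 and 3 of each group it was 68 as deposited and, in alternatives added after seeing the data, 132 after the length trend was removed, 149 with median rescaling, 27 with quantile normalization and 18 as TPM. Fewer libraries entered these fits, and the cause was not tested. Leaving out 1 library gave 0 genes past the threshold and put the members' median between -0.33 (tryptophan library 1 left out) and 0.05 (tryptophan library 3 left out). The median, -0.11 in the main comparison, was 0.01 after quantile normalization and 0.00 as TPM, each with 24 of 49 members below 0 and 10 members changing sign; TPM moved the median of all genes to 0.08, from -0.03. A filter of 5 FPKM moved that median to -0.16 and left the members at -0.11. The difference of the members' mean log2 level ran from -0.38 to 0.02 when 1 library was left out.

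A replicate block (the replicate number as a factor) called 0 genes, with 77 at an unadjusted p under 0.05, and left the members' median at -0.11. Deviations of same-numbered libraries correlated at -0.372, -0.296 and -0.344, and 0 of 6 libraries correlated best with their own number, so the numbers were not taken as pairs. Depth is known only as an estimate from low values, so no limit of detection is given; the lowest value of any member was 0.37 FPKM, for cox-17 in tryptophan library 3.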
